A study of Mus musculus with 8 samples.

Results

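The subject is a set of 38 epithelial genes expressed by 4T1 tumors, made up of keratins, tight junction and desmosome components, regulators of the epithelial state and a few other epithelial surface or secreted proteins. The members are a given list of symbols, and all 38 were found by symbol among the 25006 Ensembl identifiers in the deposited counts. 4T1 is a Balb/c-derived mammary carcinoma line that serves as a mouse model of triple-negative breast cancer. Tumors with or without CD95, the death receptor encoded by Fas, grew in the mammary fat pad, harvest was at most 20 days later, and total RNA was sequenced. There were 8 libraries in 4 groups of 2. NSG wild type and Balb/c wild type each held a parental 4T1 tumor library and a library of the vCas9 line, both with CD95. NSG knockout and Balb/c knockout each held a library of CD95 knockout clone 54 and a library of clone 69. NSG mice are immunodeficient hosts without mature lymphocytes, and Balb/c is the immunocompetent strain from which the line came. All groups share the 4T1 background and the fat pad site, each knockout line is a clone, and the labels do not describe the wild-type lines as clones, so clonal origin and CD95 status cannot be told apart. The members of a group are different lines, and the number of tumors behind a library is not given, so p-values measure only the spread between these libraries. In each pair of values below, the first belongs to the parental line or clone 54 and the second to the vCas9 line or clone 69.

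Keratins are intermediate filament proteins that assemble as obligate pairs of an acidic and a basic partner. Krt8 with Krt18, joined by Krt7 and Krt19, fills simple and luminal epithelia, while Krt5 with Krt14 marks basal epithelium and Krt6a and Krt17 are known from stressed or wounded epidermis. Claudins, occludin and the zonula occludens proteins build tight junctions, and desmosomes anchor keratin filaments to the membrane. Grhl2, Ovol1, the ETS factors Elf3 and Ehf and the splicing factors Esrp1 and Esrp2 maintain the epithelial state, and Trp63 marks basal cells. In a tumor made of carcinoma cells and host cells, such genes are commonly read as markers of the carcinoma cells. In bulk tissue, fewer epithelial cells and less RNA per epithelial cell cannot be told apart, and neither can mouse carcinoma cells and epithelium of the mouse host.

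Krt8 and Krt18 were the most abundant members per length, and their promoters are shown with those of Cldn4, the most abundant claudin of the set, and Tjp1, a junction gene with one of the narrower ranges over the libraries. Sequences are from RefSeq on GRCm38.p6, written 5′ to 3′ on the strand of the gene, from 250 bases before to 50 bases after the start of the transcript. Krt8 lies on the minus strand at chr15:102004293-102004592, Krt18 on the plus strand at chr15:102027966-102028265, Cldn4 on the minus strand at chr5:134946885-134947184 and Tjp1 on the minus strand at chr7:65371195-65371494. Capitals mark CAGGTG, the E-box letters bound by Snail and Zeb type repressors, and TATAAA, on either strand (CACCTG and TTTATA on the opposite strand).
Krt8: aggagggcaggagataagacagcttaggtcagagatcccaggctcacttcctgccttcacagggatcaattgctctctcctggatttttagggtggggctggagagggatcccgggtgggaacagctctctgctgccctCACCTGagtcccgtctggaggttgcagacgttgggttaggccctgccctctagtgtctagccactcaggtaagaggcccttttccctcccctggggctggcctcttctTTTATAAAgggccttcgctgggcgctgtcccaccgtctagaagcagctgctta
Krt18: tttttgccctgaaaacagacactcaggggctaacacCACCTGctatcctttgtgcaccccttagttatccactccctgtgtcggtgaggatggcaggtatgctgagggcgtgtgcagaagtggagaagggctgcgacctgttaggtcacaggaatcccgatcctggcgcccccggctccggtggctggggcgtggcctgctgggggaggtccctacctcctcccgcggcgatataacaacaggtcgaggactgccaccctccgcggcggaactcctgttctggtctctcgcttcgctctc
Cldn4: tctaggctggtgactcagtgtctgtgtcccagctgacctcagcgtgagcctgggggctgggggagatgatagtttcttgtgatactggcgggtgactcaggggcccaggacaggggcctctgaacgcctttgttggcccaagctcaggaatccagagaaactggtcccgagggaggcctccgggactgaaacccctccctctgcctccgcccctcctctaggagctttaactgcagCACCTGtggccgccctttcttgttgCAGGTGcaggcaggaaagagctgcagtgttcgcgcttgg
Tjp1: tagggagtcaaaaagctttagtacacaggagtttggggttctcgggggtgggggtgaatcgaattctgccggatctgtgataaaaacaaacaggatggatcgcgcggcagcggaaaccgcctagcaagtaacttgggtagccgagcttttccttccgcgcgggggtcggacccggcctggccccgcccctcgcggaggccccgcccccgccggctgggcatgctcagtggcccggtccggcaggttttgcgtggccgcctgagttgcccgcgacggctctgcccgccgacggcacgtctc
The Krt8 window held 1 CAGGTG match and 2 overlapping TATAAA matches, 1 on each strand. Krt18 held 1 CAGGTG match, Cldn4 held 2 and Tjp1 held 0. Krt8 and Krt18 are neighbours on chromosome 15, on opposite strands with 23697 bases between the genes. Of the 38 members, 20 had a window in the table used. CAGGTG, searched on both strands after the broader CANNTG had been looked at, stood in a window of 14 of the 20 (70%), against 22.56% of 27025 genes. GGAAGT, an ETS core, stood in 7 of the 20 (35%, against 26.55%), GCCNNNGGC, an AP-2 pattern, in 8 (40%, against 18.55%), and AACCGGTT, a grainyhead-like pattern, in 0 (against 0.17%). TATAAA stood in 2 of the 20 (10%, against 15.67%). These are matches of letters, not measured binding sites.

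Library totals ran from 8.68 M to 19.7 M counts (M for mega), and all 38 members passed the low-count filter that left 15310 genes. Fas, the targeted gene, was counted in every library, at 33.9 and 22.6 CPM (the usual depth-scaled read count) in NSG wild type, 29.5 and 12.9 in NSG knockout, 51.6 and 46.9 in Balb/c wild type and 27.1 and 33.7 in Balb/c knockout. Its knockout difference passed the threshold in neither host (edgeR adjusted p 0.628 in NSG and 0.225 in Balb/c), and RNA counts do not check a CRISPR lesion, so knockout status rests on the labels. Il2rg, which NSG mice lack in working form, was at 5.82 to 7.49 CPM in NSG and 98.3 to 157 CPM in Balb/c. Cdh1, at 57.8 to 271 CPM, and Epcam, at 45.2 to 416 CPM, defining epithelial markers outside the set, were present in all 8 libraries. The pair of Balb/c knockout libraries stood apart from each other, with a chi-square per degree of freedom of 115, against 18.1 to 43.7 in the other groups, and each comparison that uses them is also given without each of them. Deviations from the group means correlated between hosts over genes at 0.081 for the wild-type lines (0.51 over the members) and at -0.38 for the clones (-0.26 over the members). Libraries labelled clone 54 and clone 69 are called by those labels, and whether the labels of the clones were exchanged in a host was not tested.

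The summed level of the 38 members was 1645 and 2085 CPM in NSG wild type, 4384 and 2856 in NSG knockout, 1129 and 2711 in Balb/c wild type, and 798 and 5018 in Balb/c knockout. The lowest and the highest library of the study were thus both Balb/c knockout libraries, those labelled clone 54 and clone 69. Group means were 1865 ± 311, 3620 ± 1080.0, 1920 ± 1119 and 2908 ± 2984 CPM (SD, n = 2 each) in that order. The members took between 0.0767% and 0.477% of all counts. The NSG knockout libraries both lay above the NSG wild-type libraries, whereas in Balb/c the knockout libraries lay on either side of the wild-type libraries. Simple keratins were the largest role group by summed level in each library, from 450.0 CPM in Balb/c clone 54 to 3394 CPM in Balb/c clone 69. The 7 desmosome genes summed to 83.2 CPM in Balb/c clone 54 and 578 CPM in NSG clone 54, their lowest and highest libraries, both labelled clone 54.

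**Figure D1:**
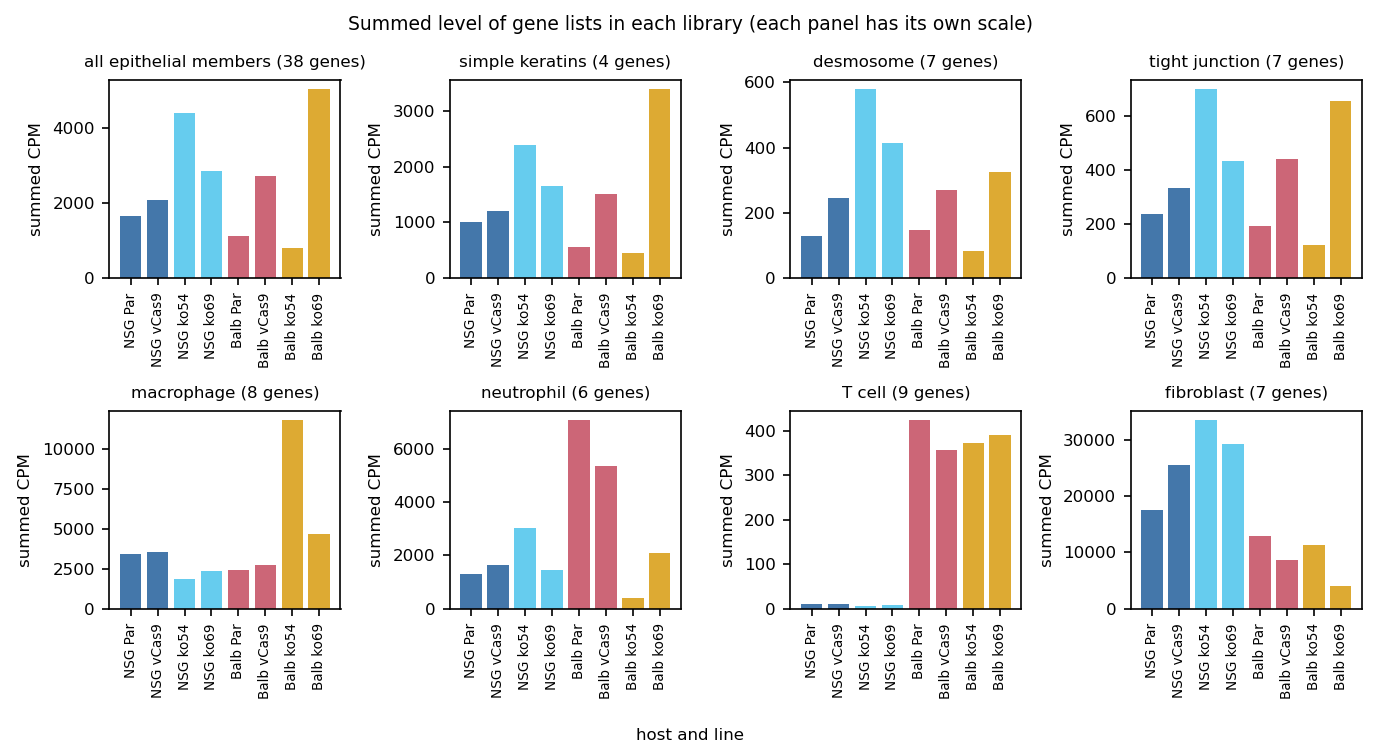
Bars give the summed level in CPM (depth-scaled read count) of gene lists in each of the 8 libraries, with a separate linear scale from 0 in every panel. All members together ran from 798 CPM in Balb/c clone 54, where the macrophage list was highest at 11775 CPM, to 5018 CPM in Balb/c clone 69.

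Marker lists of other cells and of proliferation also differed between libraries. The summed macrophage list was 11775 CPM in Balb/c clone 54 and 4665 CPM in Balb/c clone 69, against 1856 to 3535 CPM in the other 6 libraries. Neutrophil markers summed to 7075 and 5354 CPM in Balb/c wild type and 408 to 3024 CPM elsewhere, and T cell markers to 356 to 424 CPM in Balb/c and 5.03 to 10.8 CPM in NSG. B cell markers summed to at most 1.24 CPM in NSG and 6.45 to 106 CPM in Balb/c, and NK cell markers to at most 0.745 and 100.1 to 226 CPM. Fibroblast markers summed to 17472 to 33502 CPM in NSG and 3967 to 12841 CPM in Balb/c, and proliferation markers to 559 to 948 CPM and 236 to 382 CPM. Endothelial markers ranged over 172 to 446 CPM, adipocyte markers over 35.4 to 265 CPM, skeletal muscle markers over 15.5 to 113 CPM and myoepithelial or smooth muscle markers over 26.9 to 157 CPM. Secretory mammary markers, the caseins among them, were at 51.3 CPM in the parental Balb/c library and 3.81 to 21.1 CPM elsewhere. Differentiated keratinocyte markers summed to 36.3 to 74.9 CPM in NSG and 5.82 to 16.6 CPM in Balb/c, and hair follicle markers to 0.831 to 2.22 CPM. The part of these cells in the epithelial values was not tested.

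Members did not vary alike. The ratio of the highest to the lowest library had a median of 8.17-fold over the members and 2.76-fold over all genes tested. NSG clone 54 was the highest library for 19 of the 38 members and for 12.4% of all genes, and Balb/c clone 69 was the highest for 14, against 9.58%. Balb/c clone 54 was the lowest library for 22 members, against 16.4% of all genes, and the parental NSG library for 10, against 11.1%. Over the 8 libraries, the median Pearson correlation of log2 CPM between members was 0.648 (703 pairs of genes). Within roles it was 0.896 for desmosome genes, 0.785 for simple keratins, 0.628 for regulators, 0.595 for tight junction genes, 0.407 for basal and stratified keratins and 0.385 for the other members. Between a role and the rest it was 0.726 for desmosome genes, 0.727 for simple keratins, 0.688 for regulators, 0.667 for tight junction genes, 0.465 for basal and stratified keratins and 0.57 for the other members, so that desmosome genes and simple keratins alone had the higher median within their role. Cdh3, which encodes P-cadherin, had a median correlation of -0.35 with the other members, and Trp63 one of 0.081. These correlations are descriptions over 8 libraries that share lines, hosts and depth.

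**Figure D2:**
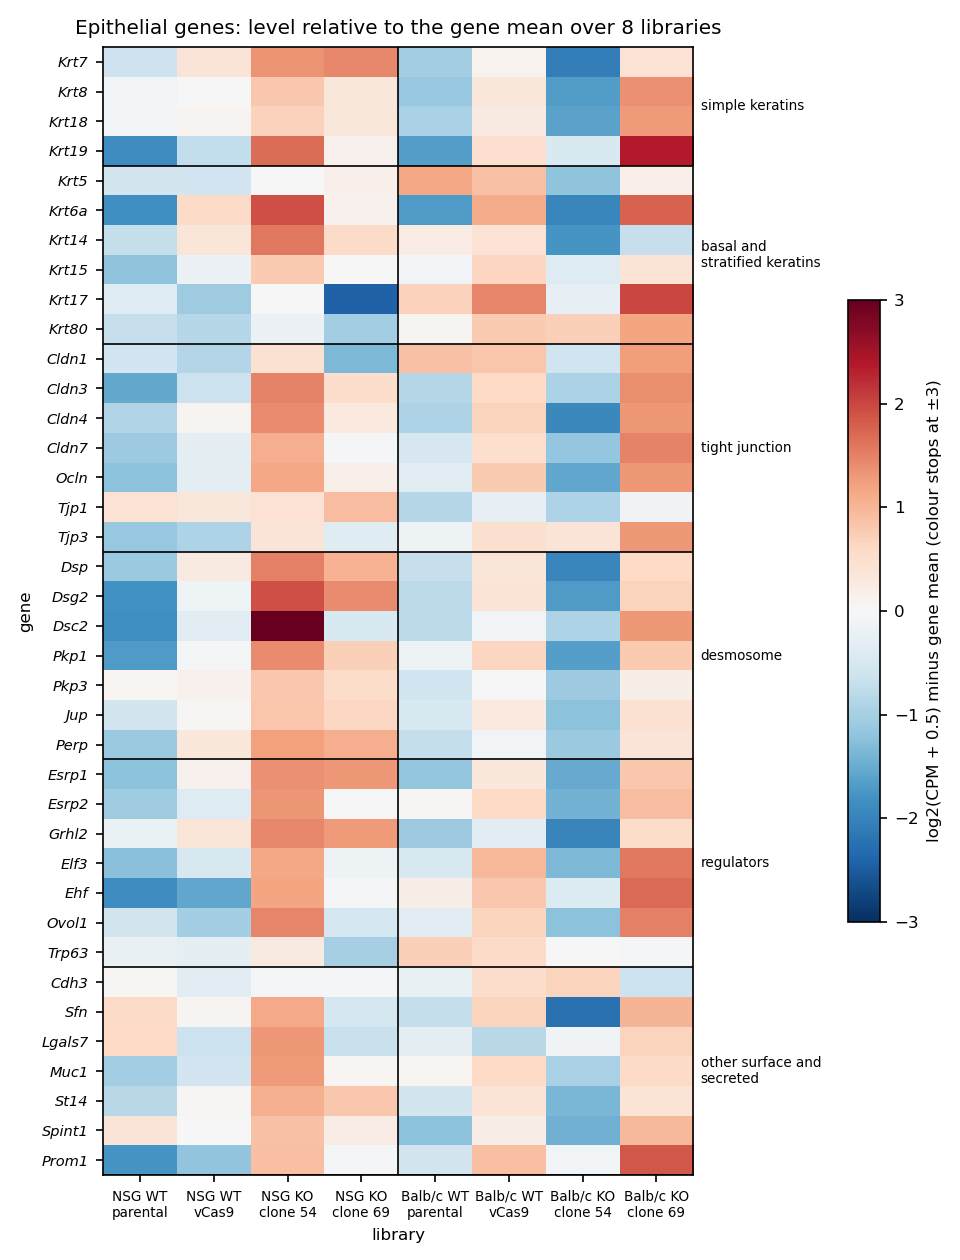
Each cell gives log2(CPM + 0.5) of a member in a library minus the mean of that gene over the 8 libraries, with genes in rows by role and libraries in columns. Most rows are high in NSG clone 54 and Balb/c clone 69 and low in Balb/c clone 54, while Tjp1 and Krt80 follow the host.

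Among simple keratins, the structural core of luminal cells, Krt8 was at 471 and 498 CPM in NSG wild type, 871 and 629.7 in NSG knockout, 227 and 628 in Balb/c wild type, and 156 and 1283 in Balb/c knockout. Its partner Krt18 was at 419 and 469, 709 and 555, 225 and 529, and 145 and 1070.0 CPM in the same order. Both genes had their lowest and highest levels in the Balb/c knockout pair, and in neither host comparison did the libraries of the groups separate. Per kilobase of exon, the ratio of Krt8 to Krt18 stayed between 0.742 and 0.901, a 1.21-fold span, while Krt8 itself spanned 8.22-fold. Krt19, the smallest keratin, was at 47.4 and 103.9 CPM in NSG wild type, 553 and 189 in NSG knockout, 54.4 and 246 in Balb/c wild type, and 125 and 905 in Balb/c knockout. It spanned 19.1-fold, and its ratio to Krt8 per kilobase ran from 0.106 in the parental NSG library to 0.848 in Balb/c clone 54. Krt7, a keratin of ductal epithelium, was at 65.0 and 132 CPM in NSG wild type, 254 and 273 in NSG knockout, 48.7 and 108 in Balb/c wild type, and 23.6 and 136 in Balb/c knockout. Its highest values were in both NSG knockout libraries.

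Basal and stratified keratins were lower than Krt8 and Krt18, though not all lower than Krt7. Mean levels per kilobase were 304 CPM for Krt8, 358 CPM for Krt18 and 18.4 CPM for Krt7, and 18.9 CPM for Krt14, 9.25 CPM for Krt6a, 4.73 CPM for Krt17, 4.28 CPM for Krt80, 0.926 CPM for Krt5 and 0.921 CPM for Krt15. Krt14 was at 16.3 and 35.0 CPM in NSG wild type, 81.4 and 40.8 in NSG knockout, 31.5 and 36.5 in Balb/c wild type, and 7.62 and 16.6 in Balb/c knockout. Both Balb/c knockout libraries lay below both Balb/c wild-type and both NSG knockout libraries. Its basal partner Krt5 was at 1.04 and 0.994, 1.71 and 1.99, 4.50 and 3.60, and 0.476 and 1.97 CPM, so that the wild-type Balb/c libraries were the highest. The ratio of Krt5 to Krt14 per kilobase ran from 0.0168 to 0.114, so the RNA of the pair did not stay in proportion as that of Krt8 and Krt18 did. Krt5 rested on 9 to 53 counts a library, so counting error enters this ratio more than that of Krt8 to Krt18. Krt80, an epithelial keratin of wide distribution, was at 14.5 and 12.8 CPM in NSG wild type, 20.9 and 11.1 in NSG knockout, 25.1 and 41.2 in Balb/c wild type, and 39.2 and 54.0 in Balb/c knockout. Every Balb/c library lay above every NSG library. Krt17 was at 3.60 and 2.07, 4.82 and 0.497, 8.24 and 14.3, and 4.07 and 21.1 CPM, its lowest library being NSG clone 69. Krt6a ranged from 3.17 to 54.2 CPM, a 17.1-fold span, and is uncertain because it shares near-identical sequence with Krt6b, and Krt15 ranged from 0.346 to 2.89 CPM.

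Of the tight junction genes, Cldn4, a sealing claudin, was at 89.5 and 177 CPM in NSG wild type, 444 and 203 in NSG knockout, 86.8 and 266 in Balb/c wild type, and 43.3 and 412 in Balb/c knockout. In NSG both knockout libraries lay above both wild-type libraries, and in Balb/c they lay on either side. Tjp1, the scaffold ZO-1, was at 119.8 and 113 CPM in NSG wild type, 121 and 169 in NSG knockout, 49.3 and 75.5 in Balb/c wild type, and 46.4 and 82.1 in Balb/c knockout. All 4 NSG libraries lay above all 4 Balb/c libraries, and Tjp1 spanned 3.64-fold. Tjp3, the related scaffold ZO-3, was at 2.29 and 2.73, 7.49 and 4.28, 5.01 and 7.97, and 7.51 and 14.5 CPM, with the wild-type NSG libraries lowest. Cldn1, Cldn3, Cldn7 and Ocln spanned 6.65-fold to 8.75-fold.

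Desmosome genes varied closely together. Dsp, the plaque protein that holds keratin filaments, was at 27.8 and 72.9 CPM in NSG wild type, 173 and 124 in NSG knockout, 36.9 and 77.2 in Balb/c wild type, and 15.1 and 91.5 in Balb/c knockout. Jup, plakoglobin, was at 52.7 and 79.9, 139.6 and 119, 56.1 and 95.9, and 32.7 and 107 CPM. For both, the NSG knockout libraries were the highest of the study and Balb/c clone 54 the lowest. The desmosomal cadherin Dsg2 was at 5.61 and 19.2 CPM in NSG wild type, 81.0 and 57.1 in NSG knockout, 12.1 and 28.1 in Balb/c wild type, and 6.14 and 33.4 in Balb/c knockout. Its partner Dsc2 was at 1.32 and 4.72, 54.7 and 4.18, 3.23 and 5.61, and 2.91 and 15.5 CPM. The high Dsc2 value rested on NSG clone 54, since NSG clone 69 lay within the range of the wild-type libraries. Pkp1, Pkp3 and Perp spanned 11.01-fold, 3.83-fold and 5.23-fold.

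Mean levels of the regulators per kilobase ran from 0.117 CPM for Trp63 to 9.46 CPM for Elf3. Ehf was at 2.22 and 2.82 CPM in NSG wild type, 21.8 and 8.95 in NSG knockout, 10.5 and 16.7 in Balb/c wild type, and 6.93 and 31.4 in Balb/c knockout. Both NSG wild-type libraries lay below the other 6. Elf3 was at 6.44 and 11.3, 36.7 and 14.4, 11.3 and 32.6, and 6.03 and 48.9 CPM. Esrp1, an epithelial splicing factor, was at 7.69 and 20.5, 48.9 and 47.0, 8.07 and 23.2, and 6.19 and 33.3 CPM, with close values for the NSG clones. Grhl2 was at 12.3 and 18.3 CPM in NSG wild type, 39.8 and 35.3 in NSG knockout, 6.37 and 11.2 in Balb/c wild type, and 3.23 and 20.9 in Balb/c knockout. Its Balb/c wild-type libraries lay below its NSG wild-type libraries, the reverse of Ehf. Esrp2 and Ovol1 spanned 7.51-fold and 8.09-fold. Trp63 was near the limit of counting, at 0.693 and 0.663, 1.18 and 0.199, 1.78 and 1.59, and 0.899 and 0.875 CPM, and its lowest value stood for 2 counts.

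Among the other members, Sfn, which encodes the 14-3-3 sigma protein, was at 138 and 96.4 CPM in NSG wild type, 204 and 63.2 in NSG knockout, 56.0 and 146 in Balb/c wild type, and 19.0 and 186 in Balb/c knockout. The membrane protease St14, matriptase, was at 19.0 and 35.5, 72.7 and 60.8, 23.4 and 46.0, and 12.9 and 46.2 CPM. For Sfn the knockout pair enclosed the wild-type pair in both hosts, and for St14 in Balb/c. Prom1, the surface protein CD133, was at 1.94 and 3.15, 15.0 and 7.46, 5.18 and 15.0, and 7.30 and 29.8 CPM, lowest in NSG wild type. Lgals7, a galectin of stratified epithelium, was at 4.02 and 1.41, 6.85 and 1.39, 1.95 and 1.18, and 2.28 and 4.23 CPM. Muc1, Spint1 and Cdh3 spanned 5.48-fold, 5.54-fold and 3.24-fold, and Cdh3 was the member whose highest library was Balb/c clone 54, at 3.07 CPM.

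**Figure D3:**
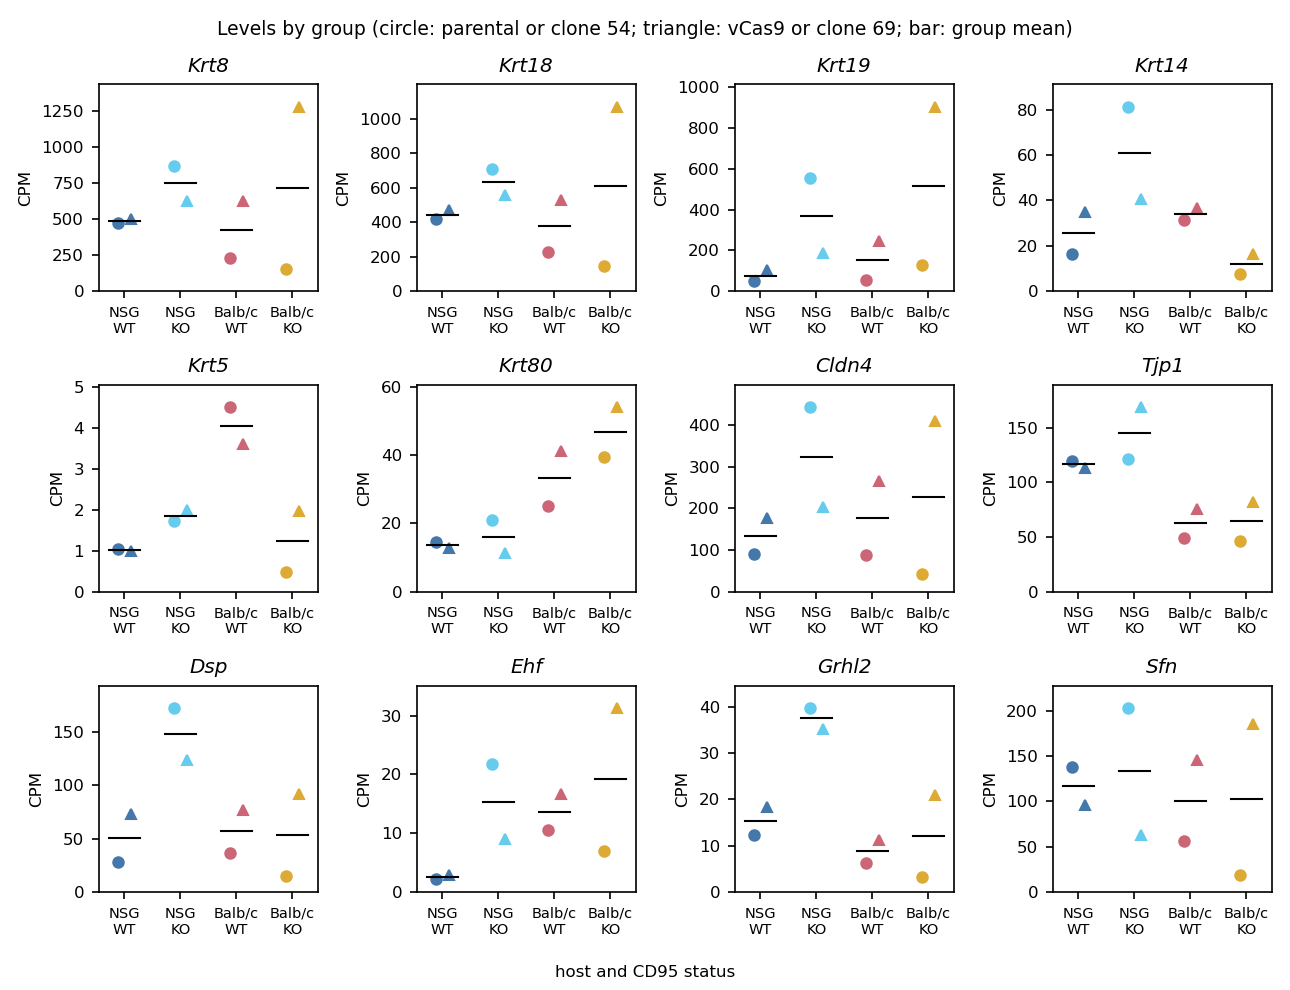
Points give the CPM of 12 members in each library by host and CD95 status, with the first line of a group as a circle, the second as a triangle and the group mean as a bar, on linear axes from 0. Krt80 and Tjp1 separate by host, while Krt8, Cldn4 and Sfn lie far apart in the 2 Balb/c knockout clones.

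The lines within a group were then set against each other, on log2(CPM + 0.5). In Balb/c knockout, clone 69 was above clone 54 in 36 of 38 members, with a median log2 ratio of 2.29, and 32 members differed over 2-fold, against 12.6% of all genes tested. In NSG knockout the order was the other way, with clone 69 below clone 54 in 35 members, a median of -0.92 and 15 members over 2-fold, against 6.87% of all genes. The combination of clone 69 higher in Balb/c and lower in NSG was met by 33 of 38 members and 29.5% of all genes. In wild type, the vCas9 line was above the parental line in 27 members in NSG (median 0.59) and in 34 in Balb/c (median 0.78), with 12 and 16 members over 2-fold, against 3.12% and 4.04% of all genes. The vCas9 line was higher in both hosts for 27 members and for 25.8% of all genes. No line was replicated within a host, so these line differences carry no test. The spread enters the tests below, since the median standard error of a member in the Balb/c knockout comparison was 0.741 on the log2 scale, against 0.277 for all genes.

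**Figure D4:**
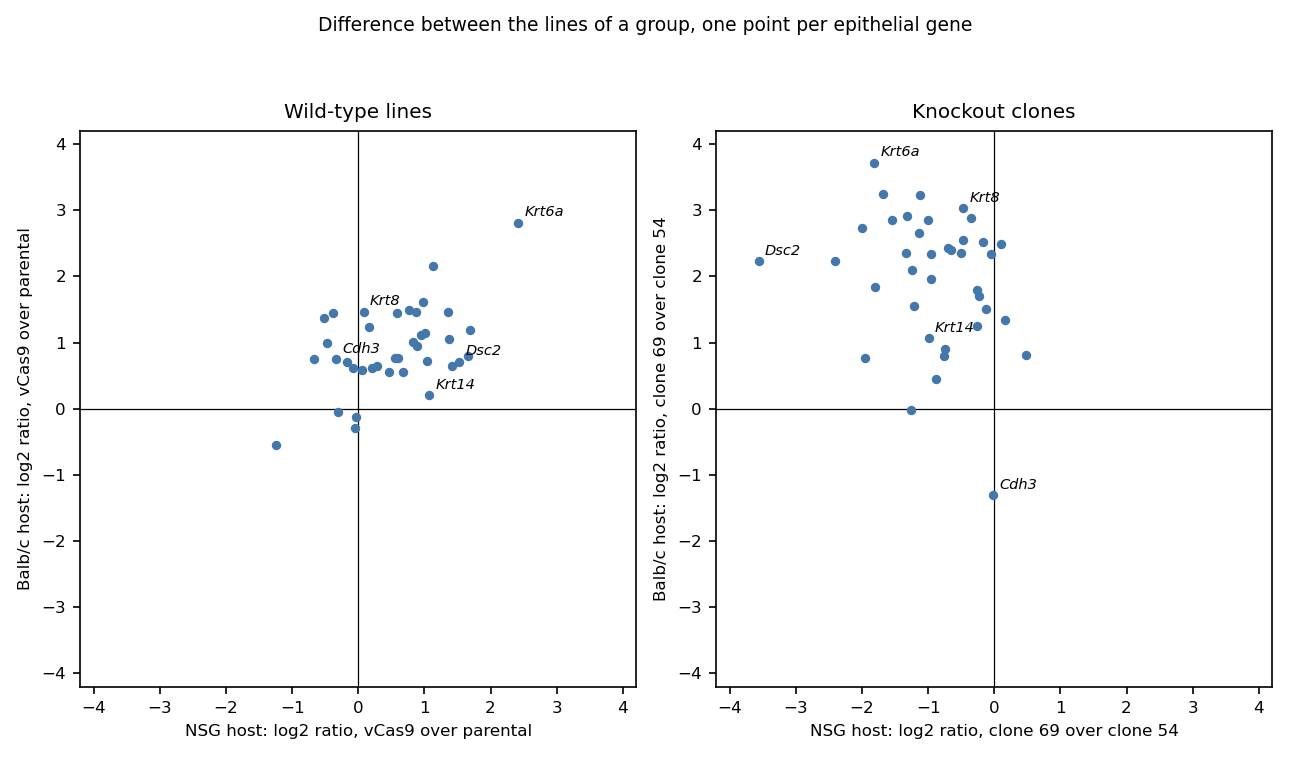
Each point is a member, placed by the log2 ratio of the second over the first line in NSG (horizontal) and in Balb/c (vertical), for the wild-type lines and the knockout clones. Wild-type points lie mostly in the upper right and knockout points mostly in the upper left, where 33 of 38 members were lower in clone 69 in NSG and higher in Balb/c.

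Knockout against wild type in NSG addressed CD95 status in a host without lymphocytes. Fitted levels were higher in knockout for 37 of the 38 members, against 51.3% of all genes, with a median log2 fold change of 1.30 (0.01 over all genes), and both knockout libraries lay above both wild-type libraries for 28, against 26.7% of all genes. By edgeR's quasi-likelihood test 0 members passed an adjusted p of 0.05, as did 0.0131% of all genes, and 9 members had an unadjusted p under 0.05, all higher in knockout, against 6.78% of all genes. DESeq2 called 1 member, Ehf, against 2.22% of all genes in that fit, and limma-voom 0, against 0.00653%. The largest fitted differences were those of Dsc2 (3.30, SE 1.24, edgeR adjusted p 0.312), Ehf (2.61, SE 0.75, adjusted p 0.247) and Dsg2 (2.48, SE 0.84, adjusted p 0.283). That of Dsc2 rested on clone 54, since clone 69 was at 4.18 CPM and the wild-type libraries at 1.32 and 4.72 CPM. Krt17 was the member with a negative value, -0.12 (SE 1.01). By role, the median was 1.56 for desmosome genes and for regulators, 1.28 for tight junction genes, 1.06 for basal and 1.03 for simple keratins, and 0.58 for the rest. With 1 NSG library left out, the median ran from 0.70 (without clone 54) to 1.82 (without the vCas9 library), and 0 members were called. All 8 macrophage markers lay lower in both knockout libraries than in both wild-type libraries, with sums of 1856 and 2365 against 3428 and 3535 CPM, and 6 of 7 fibroblast markers lay higher, with sums of 33502 and 29261 against 17472 and 25544 CPM. Skeletal muscle markers lay higher for 5 of 6 and adipocyte markers for 4 of 5, with median log2 fold changes of 0.77 and 1.40. Their part in the epithelial values was not tested.

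In Balb/c, the same contrast addressed CD95 status in an immunocompetent host. Fitted levels were higher in knockout for 24 members and lower for 14, against 53.3% of all genes higher, with a median of 0.17 (0.06 over all genes), and the libraries overlapped for 34. By edgeR 0 members passed the threshold, as did 0.176% of all genes, and 2 had an unadjusted p under 0.05, both lower in knockout, against 14.3% of all genes. DESeq2 called 1 member, Krt14, against 14.4% of all genes in that fit, and limma-voom 0, against 0.124%. The largest values were 1.78 for Krt19 (SE 1.01, edgeR adjusted p 0.264), 1.05 for Lgals7 and 1.03 for Dsc2, and in the other direction -1.76 for Krt5 (SE 0.60, edgeR adjusted p 0.101), -1.501 for Krt14 (SE 0.50, adjusted p 0.0962) and -0.92 for Trp63. The last 3 were the members whose knockout libraries both lay below both wild-type libraries, a smaller share than the 29.3% of all genes, and Lgals7 was the member with the opposite separation, against 32.9%. For Krt19 and Dsc2 the positive value rested on clone 69. Clone 54 was at 125 and 2.91 CPM, below the wild-type Balb/c means of 150 and 4.42 CPM. Of the 6 basal and stratified keratins 3 had a positive and 3 a negative value, with a median of -0.10, and the libraries overlapped for 4. The summed level of the set moved with the clone: without clone 69 the median was -1.40 and Grhl2, Krt14 and Krt5 were called lower, against 24.8% of all genes called in that fit, and without clone 54 it was 0.79 with 0 called. Leaving out the parental Balb/c library gave -0.24 and the vCas9 Balb/c library 0.69, and limma-voom gave -0.21 with all 8 libraries. Macrophage markers were higher in both knockout libraries than in both wild-type libraries, and neutrophil markers lower, as given above. Endothelial markers lay higher in both knockout libraries for 5 of 5 (median 1.10), B cell markers lower for 3 of 4 (median -3.11), and differentiated keratinocyte markers lower for 3 of the 4 that passed the filter (median -1.52). The part of these cells in the values of the members was not tested.

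The difference between the knockout effects in Balb/c and NSG was negative for 32 of 38 members, against 48.5% of all genes, with a median of -1.15 (0.03 over all genes). By edgeR 0 members passed, as did 0% of all genes, and 3 had an unadjusted p under 0.05, all negative, against 10.1% of all genes. DESeq2 called 1 member, Krt14, against 6.36% of all genes in that fit, and limma-voom 0, against 0%. Krt14 had the value -2.76 (SE 0.70, edgeR adjusted p 0.107), Krt5 -2.62 (SE 0.87, adjusted p 0.148) and Dsg2 -2.52 (SE 1.15, adjusted p 0.241). On the positive side stood Lgals7 at 0.47, Krt80 at 0.27 and Krt17 at 0.26. All 7 desmosome, all 7 tight junction and all 7 regulator genes were negative, with medians of -1.67, -0.84 and -1.25. Simple keratins had 2 positive and 2 negative values (median -0.20), basal and stratified keratins a median of -1.40 with 4 of 6 negative, and the other members one of -0.17 with 5 of 7 negative. Without Balb/c clone 69, 14 members were called, all negative, against 15.1% of all genes in that fit, and the median was -2.67. Without Balb/c clone 54, NSG clone 54, NSG clone 69 or any wild-type library, 0 were called and the median ran from -1.60 to -0.50. With the main scaling, Krt14 and Krt5 were the members whose knockout libraries separated upward in NSG and downward in Balb/c. That arrangement was met by 7.14% of all genes, a larger share than that of the members. The upward NSG direction depended on the scaling. When libraries were scaled to pan-epithelial genes outside the set, as described below, both NSG effects were negative. They were -0.22 for Krt14 (SE 1.06) and -0.58 for Krt5 (SE 1.04).

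Balb/c against NSG in wild-type tumors asked how the same lines differ between hosts, and here 3 of 38 members rose in Balb/c, against 31.5% of all genes called in either direction and 15.3% higher. They were Ehf (2.44, SE 0.74, edgeR adjusted p 0.0404), Krt5 (1.98, SE 0.61, adjusted p 0.042) and Krt80 (1.28, SE 0.35, adjusted p 0.0291). Krt80 averaged 33.2 ± 11.4 CPM in Balb/c and 13.7 ± 1.20 CPM in NSG (SD, n = 2), and Ehf 13.6 ± 4.36 and 2.52 ± 0.424 CPM. Once the lines were paired across hosts as a block, 0 members passed, and the edgeR adjusted p was 0.102 for Ehf, 0.0743 for Krt5 and 0.0892 for Krt80. Of the 38, 28 had a positive value, against 46.6% of all genes, with a median of 0.64 (-0.08 over all genes). Libraries separated upward for 12, against 35.4% of all genes, and downward for 3, against 41%, which were Grhl2, Pkp3 and Tjp1. Prom1 stood at 2.003 (SE 0.78, edgeR adjusted p 0.0828) and Tjp1 at -0.90 (SE 0.32, adjusted p 0.0624), and Lgals7 and Grhl2 had -0.81 and -0.79. Simple keratins had a median of -0.21 and basal and stratified keratins one of 1.31. Among markers of other cells, 9 of 9 T cell, 6 of 6 neutrophil and 4 of 4 tested secretory mammary markers lay higher in both Balb/c libraries. Adipocyte (5 of 5), fibroblast (6 of 7) and tested differentiated keratinocyte markers (4 of 4) lay lower. Proliferation markers, which are not those of a cell type, also lay lower (6 of 6). Of the 8 listed keratinocyte genes, 4 passed the filter. Among those that did not, Ivl had 0 and 1 counts in NSG and 5 and 8 in Balb/c. Krt1, Lor and Flg had at most 4 counts in these libraries. How far the cells behind these markers enter the values of the members was not tested. Without the parental NSG, the vCas9 NSG or the vCas9 Balb/c library 0 members were called, against 5.45%, 8% and 9.44% of all genes in those fits, and without the parental Balb/c library 1, against 8.16%. Without either NSG knockout library 2 were called, Ehf and Krt80, against 28.1%, and without Balb/c clone 54 or clone 69 7 each, against 39.2% and 40.5%, and the median ran from 0.11 to 1.21.

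In knockout tumors, Krt80 again rose in Balb/c (1.54, SE 0.35, edgeR adjusted p 0.014), while Krt14 (-2.35, SE 0.51, adjusted p 0.0113) and Tjp1 (-1.17, SE 0.32, adjusted p 0.0266) fell. These 3 members compare with 31.1% of all genes called, 15.7% higher and 15.4% lower. Krt14 averaged 61.1 ± 28.7 CPM in NSG and 12.1 ± 6.32 CPM in Balb/c (SD, n = 2), Tjp1 145 ± 33.7 and 64.3 ± 25.3 CPM, and Krt80 16.0 ± 6.88 and 46.6 ± 10.4 CPM. With the line as a block Krt14 and Tjp1 passed and Krt80 did not (edgeR adjusted p 0.0511), and the median over members was -0.82. Without the block, values were negative for 27 members, against 48.8% of all genes, with a median of -0.44 (0.02 over all genes). With limma-voom the median over members was -0.94. Both Balb/c libraries lay below both NSG libraries for 11 members, against 31.9% of all genes, 5 of them desmosome genes, and above for 2, Krt80 and Tjp3, against 32.4%. Dsg2 was at -1.81 (SE 0.81, edgeR adjusted p 0.126) and Krt7 at -1.73 (SE 0.74, adjusted p 0.112), and Krt17 at 2.24 (SE 0.99, adjusted p 0.12) and Tjp3 at 0.90 (SE 0.43, adjusted p 0.15). Krt8 and Krt18 both stood at -0.06, with SE 0.82 and 0.77. Without Balb/c clone 69, 22 members were called, 21 of them lower, against 29.6% of all genes in that fit, and the median was -2.08. Without Balb/c clone 54 the median was 0.21 with Krt14 lower and Krt17 and Krt80 higher, against 29.3% of all genes called, and without NSG clone 54 it was 0.17 with Tjp1 lower and the same pair higher, against 20.9%. Without NSG clone 69, Krt14 alone was called, against 15.6% of all genes, and without the parental or the vCas9 NSG library Krt14 and Krt80 were, against 24.2% and 23.9%. In the fit of all libraries, 8 of 8 macrophage, 9 of 9 T cell and 4 of 4 NK cell markers were called higher in Balb/c knockout. Called lower were 6 of 7 fibroblast, 6 of 6 proliferation, 4 of 5 adipocyte and 4 of 4 tested differentiated keratinocyte markers. The remaining adipocyte marker lay higher in both Balb/c libraries (1.15). The adipocyte sums were higher there too, at 199.6 and 265 CPM against 139 and 104.9 CPM in NSG. The keratinocyte gene Ivl, which did not pass the filter, had 3 and 0 counts in NSG and 9 and 13 in Balb/c. Of the myoepithelial or smooth muscle markers, 3 of 4 lay lower in both Balb/c libraries. How far these cells enter the members' values was not tested. Both host comparisons use different libraries, and the test of their difference, given above, passed for 0 members by edgeR and for Krt14 by DESeq2.

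**Figure D5:**
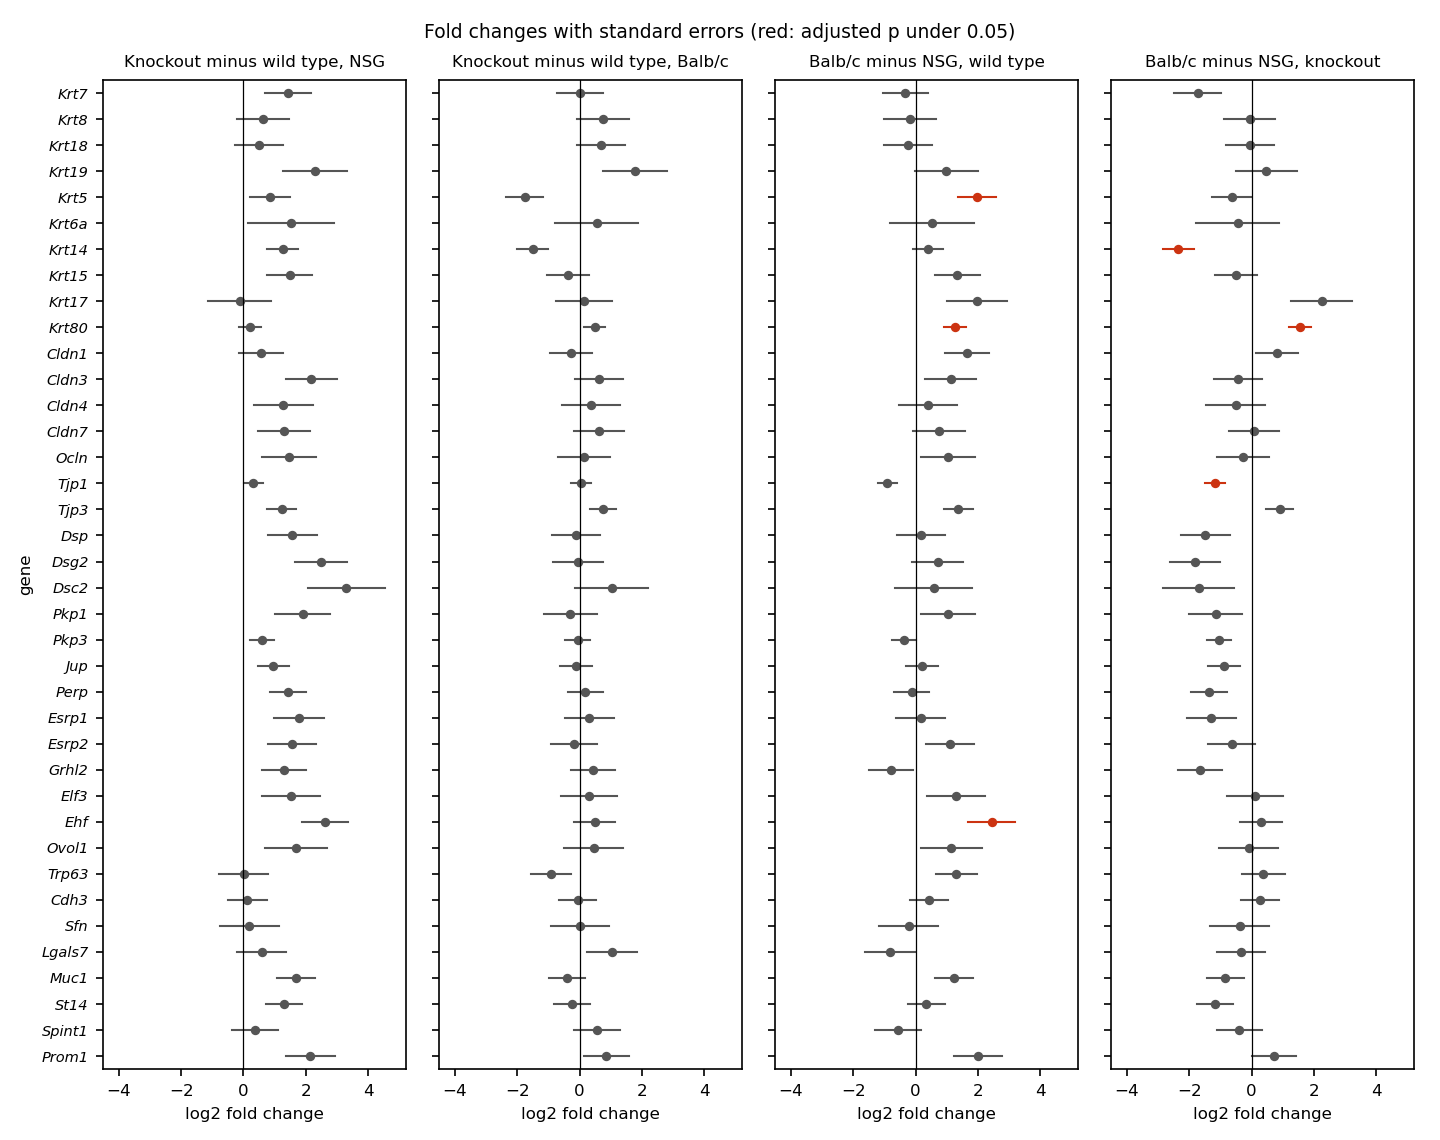
Points give the log2 fold change of each member from edgeR, with bars of 1 standard error, in the 4 comparisons of host or CD95 status, and red marks an adjusted p under 0.05. Red points are Krt5, Krt80 and Ehf in the wild-type host comparison and Krt14, Krt80 and Tjp1 in the knockout host comparison, while 37 of 38 points lie above 0 in the NSG knockout comparison.

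Epithelial genes outside the set were read beside it. Of 48 such genes, 42 had higher fitted levels in NSG knockout than in NSG wild type, against 51.3% of all genes. Their median was 0.9997, and 0 were called, against 0.0131% of all genes. In the Balb/c knockout contrast 28 were higher (median 0.18), against 53.3% of all genes, and 0 were called, against 0.176%. In wild-type tumors 5 were called, against 31.5% of all genes: 2 rose in Balb/c, Grhl1 (3.59, SE 0.65, edgeR adjusted p 0.00767) and Cd24a (1.5002, SE 0.45, adjusted p 0.0382), and 3 fell, Itgb4, Cldn12 and Itga6. In knockout tumors 9 of the 48 (18.8%) fell in Balb/c, near the 15.4% of all genes that did, and 0 rose, against 15.7%. They included Lama3 (-3.63, SE 0.46, edgeR adjusted p 0.00141) and Itgb4 (-3.55, SE 0.42, adjusted p 0.0011). Lama3 encodes a component of epithelial basement membranes, and Itgb4 encodes an integrin subunit of hemidesmosomes, whose partner Itga6 was also among the 9.

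When the libraries were scaled so that 12 pan-epithelial genes outside the set, such as Cdh1 and Epcam, had an equal mean level, the members' medians were -0.16 for knockout in NSG and -0.41 in Balb/c, 0.26 for host in wild type and -0.13 in knockout. Under the same scaling the medians over all genes were -1.45, -0.08, -0.54 and 0.90. The edgeR test then called 0 members in each of the 5 comparisons, and called 1.45% of all genes for host in wild type and 3.27% in knockout. Relative to those genes, Krt80 was at 2.46 (SE 1.117, edgeR adjusted p 0.267) and Krt14 at -1.62 (SE 1.09, adjusted p 0.541) in the knockout host comparison. Tjp1 stood there at -0.62 (SE 1.04). In the wild-type host comparison, Ehf was at 1.94 (SE 1.07), Krt5 at 1.58 (SE 1.03) and Krt80 at 0.68 (SE 1.06). For knockout in NSG, Krt14 was at -0.22 (SE 1.06) and Krt5 at -0.58 (SE 1.04), and in Balb/c they were at -1.94 and -2.52.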

How the data were processed

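Total RNA of 8 tumor samples was sequenced, and the authors deposited raw counts per Ensembl gene, 1 library per file. Per the submitters' processing notes, cutadapt 1.13, STAR, HTSeq 0.6.1p1 and DESeq2 were used with builds mm10 and hg19, without their roles. The strand setting, annotation and filters are not given in the sources used here, so counts of members that overlap another gene (20 of 38, 7 of them a gene in the counts) are uncertain. Groups were taken from host and CD95 status in the titles. The members and gene lists were chosen with earlier results of these data known.

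From the deposited counts, edgeR 4.0.16 under R 4.3.3 fitted a quasi-likelihood model (TMM, filterByExpr, glmQLFit, glmQLFTest) in 1 fit of 4 group means with 4 residual degrees of freedom and a common biological coefficient of variation of 0.244. Benjamini-Hochberg adjustment ran over 15310 genes, 0.05 was the threshold, and the procedure was tested on simulated data. CPM uses TMM-scaled totals, and levels per kilobase use merged exons of GENCODE M21. A library at 3 counts shows 0.159 to 0.321 CPM, and such floors cover counting error only. Alternatives were other scalings, no filter, DESeq2 1.42.0, limma-voom (limma 3.58.1), only the groups compared, the cell line as a block, and each library left out. The same lines were grown in both hosts, which pairs the libraries, and deviations from group means correlated over genes at 0.081 for the wild-type lines and -0.38 for the clones. Levels in every library are given for the top 2 members by mean CPM of each role, every member called, and up to 3 members a direction and comparison by fold change. Of 48 other epithelial genes, up to 3 called genes a direction and comparison were to be named by fold change. An item that the latter rule would name is not reported here.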

Additional observations from a re-analysis of the deposited data

Results flagged for a closer look

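With the main scaling, the knockout effect of 2 basal keratins pointed in opposite directions in the 2 hosts, with libraries that did not overlap within either host. For Krt14, both knockout libraries lay above both wild-type libraries in NSG and below them in Balb/c, and the difference between the effects was -2.76 on the log2 scale (edgeR adjusted p 0.107). For Krt5 the same pattern had a difference of -2.62 (edgeR adjusted p 0.148), at levels of 0.476 to 4.50 CPM. With pan-epithelial reference scaling the opposite directions were lost, since both effects were negative. Krt14 was then at -0.22 in NSG and -1.94 in Balb/c, and Krt5 at -0.58 and -2.52. The edgeR test of the difference passed for neither gene, while DESeq2 and edgeR without the low-count filter called Krt14 (adjusted p 0.00211 and 0.0122), in fits that called 6.36% and 3.24% of all genes. Of all genes, 7.14% showed the same arrangement of libraries, so these 2 of 38 members are no larger a share than in genes at large.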

How the results depend on the processing

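The number of members called moved by over 1.5 times in these cases, whose causes were not tested. For host in knockout tumors (3 called), it was 0 with pan-epithelial reference scaling (3.27% of all genes in that fit), 9 without the filter (23.8%), 7 with DESeq2 (32.4%), 6 with limma-voom (30.7%) and 1 to 22 with 1 library left out. For host in wild-type tumors (3 called), it was 0 with reference scaling (1.45%), 7 without the filter (23.4%), 6 with DESeq2 (32.3%), 11 with only the groups compared (46.7%), 0 with the cell line as replicate block (13.5%) and 0 to 7 with 1 library left out. By smaller steps, host in wild type gave 2 with limma-voom (without Ehf, 30.8%), 3 with total-count scaling (without Krt5, with Tjp1 lower, 34.1%) and 4 with DESeq2 size factors in edgeR (30.2%), and host in knockout 2 with only the groups compared (without Tjp1, 16.8%) and 4 with total-count scaling (30.7%). For the difference between knockout effects (0 called), it was 1 without the filter (3.24%), 1 with DESeq2 (6.36%) and 0 to 14 with 1 library left out. For knockout in Balb/c (0 called), it was 1 without the filter (8.52%), 1 with DESeq2 (14.4%) and 0 to 3 with 1 library left out, and for knockout in NSG (0 called) 1 with DESeq2 (2.22%). With the clones crossed between hosts in the replicate block, chosen after seeing the data, the counts were 9 for host in wild type (37.4%), 17 for host in knockout (35.5%) and 3 for the difference (2.01%). Since the clones' deviations correlated at -0.38 between hosts, crossing them lowers the residual spread by construction. The crossed counts are therefore no test of whether labels were exchanged. A fit with 1 library left out assumes that the lone library of its group varies like the others. Total-count scaling moved the median of all genes from -0.08 to -0.24 for host in wild type and from 0.02 to -0.17 in knockout. The block changed no other call of a named member. No called value turned its direction. Of the other values recomputed for named members and medians, 636 counted as unchanged, 37 passed the threshold anew, 32 no longer passed and 36 moved. For a named member, unchanged means the same call and direction. For a median it means a shift smaller than the SD of the members' fold changes, so the sign of a median could change. Each group held 2 libraries of different lines, which limits precision, and the share of the spread due to depth was not tested.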
